A study of Mus musculus with 4 samples.

Results

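A group of 8 genes was present at low to moderate levels in resting macrophages and nearly lost from the polyadenylated RNA after LPS, in wild-type and in miR-7 deficient cells alike. The genes are Npas4, Sox7, Arhgap19, Rasgrp3, Matk, Rnf150, Slco2b1 and Adgre4, 8 of the 52550 gene entries in the count files. They were chosen by the measured values themselves, because their scaled counts were far lower with LPS in both genotypes, so the LPS differences given here describe the choice and carry no test. The choice had no numerical limit. Each gene matched 1 entry of the files by its Ensembl identifier.

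The cells were labelled Bone Marrow_Derived Macrophage, that is macrophages grown from marrow precursors, of C57BL/6 mice 8-10 weeks old. There were 4 groups of 1 library each: wild type unstimulated, wild type with LPS, miR_7 deficiency unstimulated and miR_7 deficiency with LPS, where LPS was given at 100 ng/mL for 12 hours. LPS, lipopolysaccharide, is a component of the outer membrane of Gram-negative bacteria. The sources used here do not state how the microRNA was removed, how many animals gave each culture or how the cells were grown. With 1 library a group there is no replicate, so intervals printed with a pair of libraries cover counting error only, and differences between single mice or cultures cannot be told apart from those of LPS or genotype.

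As background, LPS is sensed by Toll-like receptor 4 and its co-receptors, and drives NF-kB, MAP kinase and interferon signalling. Besides the large induced programme, macrophages lower many transcripts of resting and dividing cells over the following hours. A transcript can be lost through less synthesis, faster decay or both, and counts of steady-state RNA do not separate these. In a bulk sample, fewer cells of a type and less RNA per cell cannot be told apart either. The 8 genes belong to unrelated families: transcription factors (Npas4, Sox7), regulators of small GTPases (Arhgap19, Rasgrp3), a tyrosine kinase (Matk), a ubiquitin ligase (Rnf150), a membrane transporter (Slco2b1) and an adhesion receptor (Adgre4).

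Total counts ran from 33937823 to 42074624 per library, and 12730 genes were tested, all 8 among them. Levels are in CPM, counts scaled to a common library total after TMM correction, and where 4 values are given they follow the order wild type unstimulated, wild type LPS, deficient unstimulated, deficient LPS. A count of 0 was taken to allow up to 3 counts, which is 0.0905 CPM in the wild-type LPS library and 0.0801 CPM in the deficient LPS library. All 8 markers of macrophages on a fixed list were at 1 CPM or more. The summed level of that list was 22372, 12747, 22983 and 14537 CPM, most of it from Lyz2, the lysozyme gene (17670, 8664, 18594 and 10310 CPM). Its members did not move together, since Fcgr1 (52.6, 403, 23.8 and 423 CPM) and Adgre1 (429, 922, 387 and 902 CPM) were higher with LPS in both pairs. The part of these markers in the results was not tested.

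Without LPS, the 8 genes stood between 4.79 and 71.0 CPM in the wild-type library and between 3.52 and 67.4 CPM in the deficient library. With LPS they stood between 0 and 1.81 CPM and between 0 and 1.52 CPM. No gene of the group had an LPS level within the range of its own unstimulated levels. Sox7, Rasgrp3 and Slco2b1 had 0 counts in both LPS libraries. Of all tested genes, 0.196% (25 genes) had 0 counts in both. In the other 5 genes, between 0.893% and 2.89% of the unstimulated level was left.

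**Figure D1:**
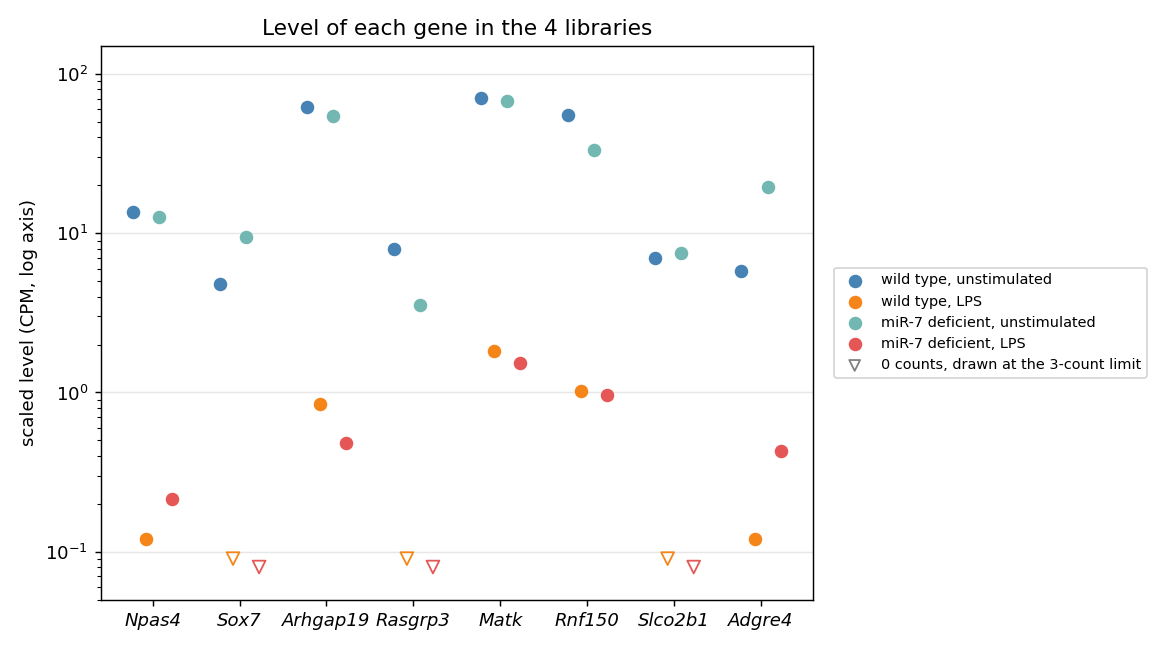
Scaled level in CPM (log axis) of the 8 genes in the 4 libraries, 1 point per library, with open triangles for 0 counts drawn at the limit of 3 counts. Unstimulated libraries lie between 3.52 and 71.0 CPM, and no LPS library lies above 1.81 CPM.

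All 8 genes had an interval wholly beyond 2-fold lower in the wild-type pair, as had 13.3% of tested genes, and in the deficient pair, as had 11.8%. In both pairs at once, 8.64% of tested genes were this much lower. Beyond 8-fold in both pairs stood the 8 genes and 0.951% of tested genes. The smallest difference in the group was that of Rnf150 in the deficient pair, 34.6-fold. At least this difference in both pairs was seen in 18 tested genes (0.141%), the 8 genes and 10 others, with genes at 0 counts taken at their limit. Since the group was picked by this contrast, these shares place it among all genes and support nothing. The median log2 ratio of the 8 genes, with 0 counts at their limit, was -5.97 in the wild-type pair and -5.70 in the deficient pair. The median over all tested genes was -0.02 and -0.06.

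**Figure D2:**
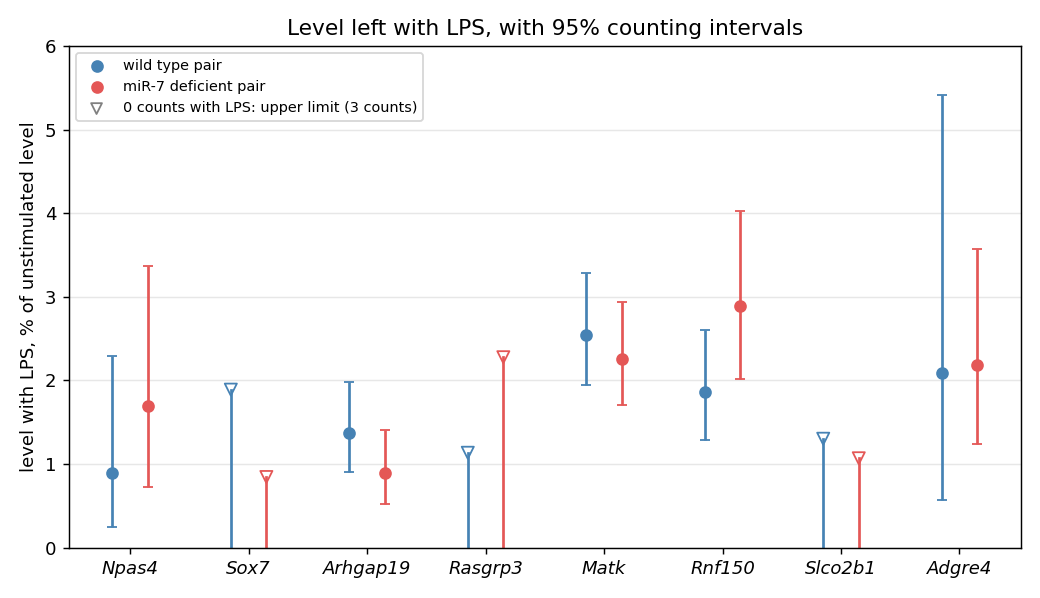
Level left with LPS as a percentage of the unstimulated level, for the wild-type pair and the deficient pair, with 95% counting intervals. Points with counts lie between 0.893% and 2.89%, and triangles mark the upper limit where the LPS library had 0 counts.

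Npas4 encodes a transcription factor of the bHLH-PAS family, best known as a gene that neurons switch on within minutes of activity and calcium entry. It lies on chromosome 19 at 4984355 to 4990316 of GRCm38, on the minus strand. Its counts were 632, 4, 494 and 8, or 13.5, 0.121, 12.6 and 0.214 CPM. Both unstimulated libraries lay close together and both LPS libraries were near the detection limit. The level with LPS was 112-fold lower in wild-type cells (interval 43.5 to 412) and 58.9-fold lower in deficient cells (29.7 to 137). None of 8 neuronal markers reached 1 CPM in any library, and their summed level lay between 0.241 and 1.55 CPM.

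The window from 250 bases before to 50 bases after the start of Npas4 is shown because it holds both orientations of TGACGT, the core of the cAMP response element, within a short stretch. The RefSeq sequence of GRCm38.p6, chr19:4989922-4990221 on the minus strand, is given 5′ to 3′ with each TGACGT, on either strand, in capitals.
Npas4 promoter: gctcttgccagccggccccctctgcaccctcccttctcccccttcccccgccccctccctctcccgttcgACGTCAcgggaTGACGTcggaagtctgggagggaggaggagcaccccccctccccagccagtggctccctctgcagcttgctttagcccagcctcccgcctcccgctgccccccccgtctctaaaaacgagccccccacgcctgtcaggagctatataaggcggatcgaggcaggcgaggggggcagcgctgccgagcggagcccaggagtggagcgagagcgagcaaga
The matches begin 180 and 169 bases before the start. Of 32851 windows of this length, 7.51% hold TGACGT on either strand and 2.17% hold it at least 2 times. A match of letters is a description and does not show that a factor binds there.

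Relatives of Npas4 did not share 1 direction. Of 21 listed bHLH-PAS genes and their coactivators, 15 were tested, of which 3 fell, 2 rose and 10 did not pass the edgeR quasi-likelihood test with Benjamini-Hochberg adjustment over all genes. Scaling by total counts gave 5 lower and 2 higher. In that test 16.3% of all genes fell and 18.0% rose with LPS. Epas1, which encodes the hypoxia-inducible factor HIF-2α, fell, standing at 21.0, 0.271, 23.7 and 1.01 CPM (fitted log2 -5.24 ± 0.47 SE). The clock factor Npas2 fell by 3.44 on the log2 scale (SE 0.48). Per2, a clock repressor, rose (log2 2.13 ± 0.24), as did Hif1a, the other main hypoxia-inducible subunit (log2 1.72 ± 0.20), whereas the coactivator Ncoa3 did not pass (-0.14 ± 0.19). Immediate early genes, with which Npas4 is usually grouped, also split. Of 18 listed, 12 were tested, of which 5 rose, 2 fell and 5 did not pass. Fos and Egr2 fell (log2 -1.91 ± 0.30 and -1.07 ± 0.23), Fosl1 and Ier3 rose (4.15 ± 0.49 and 3.48 ± 0.39), and Jun did not pass (-0.77 ± 0.29, adjusted p 0.0895 in edgeR). When libraries were scaled by total counts, Jun fell and the list gave 4 higher and 3 lower.

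Sox7 encodes a SoxF transcription factor known from endothelial and blood development. The gene spans 63943673 to 63950732 of chromosome 14, plus strand. Its counts were 224, 0, 372 and 0, or 4.79 CPM unstimulated in wild-type and 9.48 CPM in deficient cells. The count was 0 in both LPS libraries. The level was thus at least 52.9-fold lower in the wild-type and at least 118-fold lower in the deficient LPS library, the limits differing because the unstimulated levels did. The other SoxF genes were almost silent throughout, with 0 counts for Sox17 in every library and 7, 0, 17 and 0 counts for Sox18. Of 18 listed SOX genes only Sox4 and Sox13 were expressed enough to test. Sox4, best known in progenitor cells, fell from 1.88 to 0.543 and from 2.55 to 0.748 CPM (log2 -1.78 ± 0.50), and Sox13 did not pass (-0.40 ± 0.59).

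Because Sox7 is best known in endothelium, 10 endothelial markers were read beside it. Of these, 4 reached 1 CPM in some library, and Emcn, Erg and Sox17 had 0 counts in every library. Their summed level was higher with LPS, at 43.4, 173, 37.3 and 256 CPM, almost all of it from Kdr (36.3, 162, 30.2 and 243 CPM). Not all listed markers followed Kdr: Tie1 stood at 0.363, 0.302, 1.15 and 0.134 CPM and Sox18, as given, had counts only without LPS. The part of endothelial cells in the Sox7 values was not tested.

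Arhgap19 encodes a GTPase-activating protein that turns off RhoA and acts in cell division. It lies on chromosome 19 at 41766588 to 41802047, on the minus strand. Counts were 2888, 28, 2123 and 18, or 61.7, 0.844, 54.1 and 0.481 CPM. Of the 8 genes it had the next highest unstimulated levels after Matk, and the LPS libraries lay far below with no overlap. The level was 73.1-fold lower in wild-type cells (50.5 to 110) and 113-fold lower in deficient cells (71.1 to 190).

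Its promoter window is shown because CCAAT boxes, bound by the factor NF-Y, and the cell cycle homology region TTTGAA are the elements often found at genes of late cell division. The RefSeq sequence, chr19:41802035-41802334 on the minus strand of GRCm38.p6, is given with every CCAAT and TTTGAA in capitals.
Arhgap19 promoter: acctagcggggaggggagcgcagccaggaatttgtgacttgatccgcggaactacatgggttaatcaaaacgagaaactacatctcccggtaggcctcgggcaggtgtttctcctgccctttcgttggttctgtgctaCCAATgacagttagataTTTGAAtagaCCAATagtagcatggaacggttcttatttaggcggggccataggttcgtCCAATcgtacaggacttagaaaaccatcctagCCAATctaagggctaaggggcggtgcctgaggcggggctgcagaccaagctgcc
It holds 4 CCAAT boxes, at 112, 85, 36 and 4 bases before the start, and 1 TTTGAA at 95 bases before it. At least 4 CCAAT boxes are found in 1.06% of all windows, and 64 windows (0.195%) hold these together with a TTTGAA. Single matches are common, with CCAAT in 37.4% and TTTGAA in 17.9% of windows on either strand.

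Partners of Arhgap19 in cytokinesis were mostly lower as well. Of 15 listed genes, all tested, 10 fell, 0 rose and 5 did not pass, while 16.3% of all tested genes fell. With DESeq2 size factors 8 fell, and with total counts 12 fell. The kinase Plk1 fell (6.56, 0, 5.53 and 0.427 CPM), and so did the scaffold Anln (11.4, 0.814, 8.79 and 0.481 CPM, log2 -3.98 ± 0.38). Vim, the most abundant of those that did not pass, gave a log2 value of 0.11 ± 0.22, and Rhoa, the GTPase on which Arhgap19 acts, gave 0.19 ± 0.19 (adjusted p 0.498 in edgeR). Among 36 tested RhoGAP genes, 12 fell, 6 rose and 18 did not pass, while scaling by total counts gave 21 lower and 3 higher. The lowest were Chn2, a diacylglycerol-responsive RacGAP (log2 -4.58 ± 0.32), and Racgap1, of the central spindle (-3.00 ± 0.38). Srgap1 and Arhgap28 rose (2.54 ± 0.50 and 1.83 ± 0.40), and the abundant Arap1 did not pass (0.45 ± 0.18).

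Rasgrp3 encodes an exchange factor that, on binding diacylglycerol, loads Ras and Rap GTPases with GTP, and is best known downstream of the B cell receptor. The gene spans 75435896 to 75529054 of chromosome 17, plus strand. Counts were 373, 0, 138 and 0, which is 7.97 CPM unstimulated in wild-type and 3.52 CPM in deficient cells. Both LPS libraries had 0 counts. The level was at least 88.1-fold lower in the wild-type and at least 43.9-fold lower in the deficient LPS library.

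A B cell marker moved the same way and is given for that reason. Of 8 B cell markers, only Ighm reached 1 CPM, at 6.43, 0, 9.89 and 0.107 CPM, and the list summed to 6.71, 0.121, 10.1 and 0.587 CPM. Blk had 0 counts in every library. Between the unstimulated libraries, Rasgrp3 was lower and Ighm higher in deficient cells. The part of such cells in the Rasgrp3 result was not tested.

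The first of its 2 RefSeq start windows is shown for its matches to GAGGAA, a core of the sites of ETS factors such as the macrophage regulator PU.1, and for 1 match to TATTTAT, found in sites of MEF2 factors. The sequence, chr17:75435655-75435954 on the plus strand of GRCm38.p6, has both motifs on either strand in capitals.
Rasgrp3 promoter: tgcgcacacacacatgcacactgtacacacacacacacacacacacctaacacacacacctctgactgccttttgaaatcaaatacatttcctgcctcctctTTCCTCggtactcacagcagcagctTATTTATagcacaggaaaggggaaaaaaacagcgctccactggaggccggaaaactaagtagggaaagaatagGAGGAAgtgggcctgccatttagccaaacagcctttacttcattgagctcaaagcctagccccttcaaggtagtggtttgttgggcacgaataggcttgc
GAGGAA begins 148 bases before the start on the reverse strand and 50 bases before it on the forward strand, and TATTTAT 123 bases before it. Over all windows, 28.3% hold GAGGAA and 5.60% hold TATTTAT. The group has 10 windows for 6 genes, all but Sox7 and Rnf150, and GAGGAA occurs in 6 of the 10, for 4 of the 6 genes.

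Its own family answered in both directions. Rasgrp1, the relative best known in T cells, rose, standing at 2.84, 110, 8.54 and 199 CPM (log2 4.90 ± 0.27, adjusted p 0.000178 in edgeR). Rasgrp4 and Rasgrp2 fell (log2 -2.47 ± 0.37 and -1.99 ± 0.50). Without LPS, Rasgrp3 was above Rasgrp1 in the wild-type library (7.97 against 2.84 CPM, not corrected for length) and below it in the deficient library (3.52 against 8.54 CPM). Of 22 tested genes of Ras and Rap exchange, 7 rose, 5 fell and 10 did not pass, against 4 higher and 7 lower when scaled by total counts. Rapgef2, a Rap exchange factor, rose (3.33 ± 0.21), and the diacylglycerol kinase Dgkz did not pass (-0.25 ± 0.19), though it fell under total-count scaling.

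Matk encodes a kinase related to CSK that phosphorylates the inhibitory tail site of Src family kinases. On chromosome 10 it occupies 81252935 to 81263365, on the plus strand. Counts were 3323, 60, 2645 and 57, or 71.0, 1.81, 67.4 and 1.52 CPM, the highest levels of the group. Both genotypes gave similar values in each condition, with a wide gap between conditions. The level was 39.3-fold lower in wild-type cells (30.4 to 51.6) and 44.3-fold lower in deficient cells (34.1 to 58.7). Its 60 and 57 counts with LPS make these the tightest intervals of the group.

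Csk, its ubiquitous relative, did not pass the test (107, 77.4, 93.4 and 114 CPM, log2 -0.09 ± 0.24). Src, a kinase that CSK-type enzymes restrain, rose from 32.0 to 200 and 53.7 to 267 CPM (log2 2.48 ± 0.20). Fgr fell (-0.86 ± 0.18), as did Ptpn22, a phosphatase that partners with CSK (-3.19 ± 0.40). Of 12 tested genes of this list, 4 rose, 2 fell and 6 did not pass, among them the abundant phosphatase Ptprc (-0.04 ± 0.21). Scaling by total counts gave 2 higher and 3 lower.

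Rnf150 encodes a transmembrane RING ubiquitin ligase with a protease-associated domain. It lies on chromosome 8 at 82863356 to 83091268, on the plus strand. Counts were 2585, 34, 1303 and 36, or 55.3, 1.03, 33.2 and 0.961 CPM. The unstimulated libraries differed by genotype while the LPS libraries were alike. The level was 53.9-fold lower in wild-type cells (38.5 to 78.0) and 34.6-fold lower in deficient cells (24.8 to 49.6). An antisense gene, Gm45449, shares 782 bases, 4.54% of the Rnf150 exons, and had 241, 14, 145 and 8 counts. Without a stated strand setting, reads of the shared bases cannot be assigned to either, although 4.54% of the exons is a small part. Among 6 tested ligases of the same architecture, 1 fell (Rnf13, log2 -0.90 ± 0.22), 0 rose and 5 did not pass, among them the most abundant of these 5, Rnf149 (0.67 ± 0.24). With total counts, 4 of the 6 were lower.

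Slco2b1 encodes an organic anion transporting polypeptide that carries steroid sulfates and many drugs into cells. On chromosome 7 it occupies 99657804 to 99711340, on the minus strand. Counts were 325, 0, 294 and 0, that is 6.95 and 7.49 CPM unstimulated. The unstimulated levels of the genotypes were nearly the same, and both LPS libraries had 0 counts. The level was at least 76.8-fold lower in the wild-type and at least 93.6-fold lower in the deficient LPS library. The antisense gene Gm15635 shares 471 bases, 7.91% of its exons, and had 24, 0, 21 and 0 counts. Another antisense gene that shares 78 bases had 0 counts throughout.

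The outermost of its 3 start windows is shown for GAGGAA next to TGANTCA, the site of AP-1 factors, just after the start. The RefSeq sequence, chr7:99711291-99711590 on the minus strand of GRCm38.p6, has both in capitals.
Slco2b1 promoter: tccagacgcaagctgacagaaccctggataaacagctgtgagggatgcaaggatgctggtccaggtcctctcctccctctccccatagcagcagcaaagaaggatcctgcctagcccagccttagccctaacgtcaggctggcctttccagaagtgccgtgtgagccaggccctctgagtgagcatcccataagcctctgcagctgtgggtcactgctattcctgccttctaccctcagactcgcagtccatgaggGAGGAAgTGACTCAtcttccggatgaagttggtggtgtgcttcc
GAGGAA starts at base 7 and TGANTCA at base 14 after the start. TGANTCA is found in 7.81% of all windows, and of the 10 windows of the group only this one holds it.

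The other tested transporters of the family moved the opposite way. Slco3a1, which carries prostaglandins among other anions, rose, standing at 18.8, 458, 12.1 and 563 CPM (log2 5.07 ± 0.31, adjusted p 0.000216 in edgeR). Slco4a1 rose as well (1.42 ± 0.30). Of 14 listed family members, these 2 were the only ones tested, and both rose under all 3 scalings.

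Adgre4 encodes an adhesion G protein-coupled receptor of the EGF-TM7 group, to which the macrophage marker F4/80 (Adgre1) also belongs. It lies on chromosome 17 at 55749984 to 55853662, on the plus strand. Counts were 270, 4, 767 and 16, or 5.77, 0.121, 19.5 and 0.427 CPM. Deficient cells had the higher value in both conditions, and both LPS libraries lay far below both unstimulated ones. The level was 47.8-fold lower in wild-type cells (18.5 to 177) and 45.8-fold lower in deficient cells (28.0 to 80.5). The 4 counts of the wild-type LPS library leave a wide interval for the level left, 0.565% to 5.41%.

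The other EGF-TM7 receptors tested went in opposite directions. Adgre5, which encodes the receptor CD97, fell from 322 to 16.6 and from 264 to 27.7 CPM (log2 -3.76 ± 0.31). Adgre1 rose from 429 to 922 and from 387 to 902 CPM (1.16 ± 0.20). Over 10 tested adhesion receptors, 3 fell, 3 rose and 4 did not pass, with Adgrg3 (-2.75 ± 0.26) among the fallers, Adgrv1 (3.44 ± 0.60) among the risers and Celsr3 (0.25 ± 0.24) among those that did not pass. Scaling by total counts gave 4 lower and 2 higher.

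**Figure D3:**
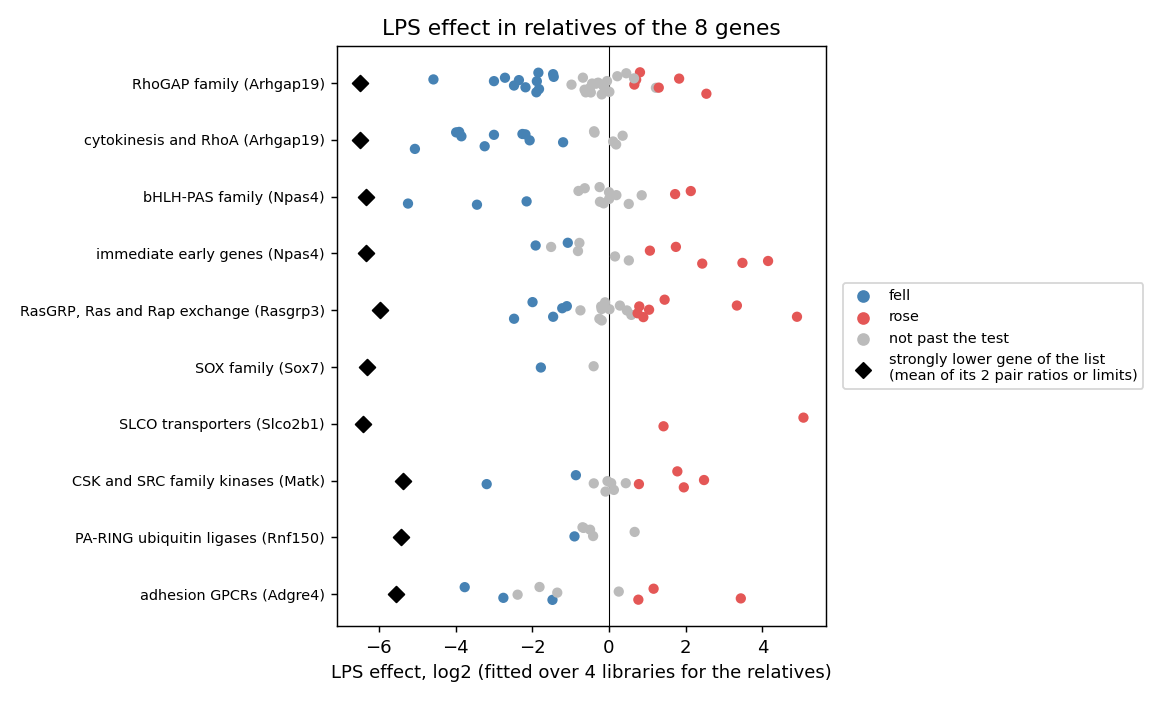
Fitted LPS effect (log2, over 4 libraries) of every tested relative in 10 lists, coloured by the edgeR call, with a black diamond for the mean of the 2 pair ratios, or limits, of the strongly lower gene named beside each list. All diamonds lie left of -5, while relatives such as Slco3a1 and Rasgrp1 lie near 5.

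Over all 10 lists, 209 relatives were listed and 131 tested, of which 38 fell, 29 rose and 64 did not pass. That is 29.0% fallers, beside 16.3% of all tested genes, and 29 risers of 131, beside 18.0% of all tested genes. The cytokinesis list, with 15 tested genes, held 10 of the 38 fallers. Since the lists were chosen with earlier results known, these shares are a description. The counts of fallers and risers rest partly on single libraries. In a model of LPS alone, 35 fell and 26 rose, but 18 fell and 10 rose without the wild-type unstimulated library, and 20 fell and 14 rose without the deficient unstimulated library. Without the wild-type LPS library 33 fell and 18 rose, and without the deficient LPS library 32 fell and 19 rose. Reads of Chn2, Srgap1, Arap1, Plk1, Rhoa, Hif1a, Ncoa3, Fosl1, Jun, Rasgrp2, Rasgrp4, Dgkz, Sox4, Rnf13, Rnf149, Adgre5 and Celsr3 may be split, since these genes share exonic bases with others.

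The genotype contrast was not used to choose the group, so it was tested. The test is not wholly free of the choice, which asked for a strong fall in both genotypes. That keeps the LPS libraries near 0 at these genes. It may also favour genes with like LPS ratios in both genotypes, and the difference of those ratios is the 1 residual degree of freedom of the fit. For Sox7, Rasgrp3 and Slco2b1, with 0 counts in both LPS libraries, the fit rests on 1 unstimulated library of each genotype. Their SE and p come mainly from the spread seen in other genes. The study asked which genes miR-7 lowers, per the series text. In the additive edgeR model 0 of the 8 genes passed, 1 had an unadjusted p under 0.05, and DESeq2's Wald test also passed 0. Of all tested genes 1.79% passed in DESeq2 and 0.55% in edgeR (0.385% higher and 0.165% lower in deficient cells), and 7.6% had an unadjusted p under 0.05 in edgeR. Fitted values lay above 0 for 4 genes and below 0 for 4, with a median of -0.02, beside 0.02 over all tested genes.

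Adgre4 had the largest genotype value. The deficient library was 3.39-fold higher without LPS (counting interval 2.94 to 3.91) and 3.54-fold higher with LPS (1.14 to 14.6). The fitted difference was log2 1.77 ± 0.36, with an adjusted p of 0.191 in edgeR and 0.089 in DESeq2, so it did not pass. Among the alternative fits that kept all 8 genes and both factors, the lowest adjusted p of the group lay between 0.089 and 0.375. Sox7 was 1.98-fold higher in the deficient unstimulated library (1.67 to 2.35; fit log2 0.97 ± 0.56). Rasgrp3 went the other way, 2.27-fold lower (1.86 to 2.78; fit -1.16 ± 0.59), and Rnf150 was 1.66-fold lower (1.56 to 1.78; fit -0.49 ± 0.26). Rnf150 did not pass either (adjusted p 0.812 in edgeR), nor did Sox7 and Rasgrp3, whose fits rest on the unstimulated pair alone. Arhgap19, Matk, Npas4 and Slco2b1 had unstimulated log2 ratios between -0.19 and 0.11.

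The interval for counting error left out a ratio of 1 in 6 of 8 genes between the unstimulated libraries, as it did in 62.6% of all tested genes, and lay wholly beyond 2-fold for Adgre4 only. Beyond 2-fold higher stood 2.82% and beyond 2-fold lower 1.41% of all tested genes. Between the LPS libraries it left out 1 for Adgre4 alone of the 5 genes with counts, beside 66.4% of tested genes. In that pair 0 of the 8 genes lay wholly beyond 2-fold, beside 2.58% of tested genes higher and 3.04% lower. The depth of the LPS libraries at these genes, 0 to 60 counts, does not allow a finer comparison.

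**Figure D4:**
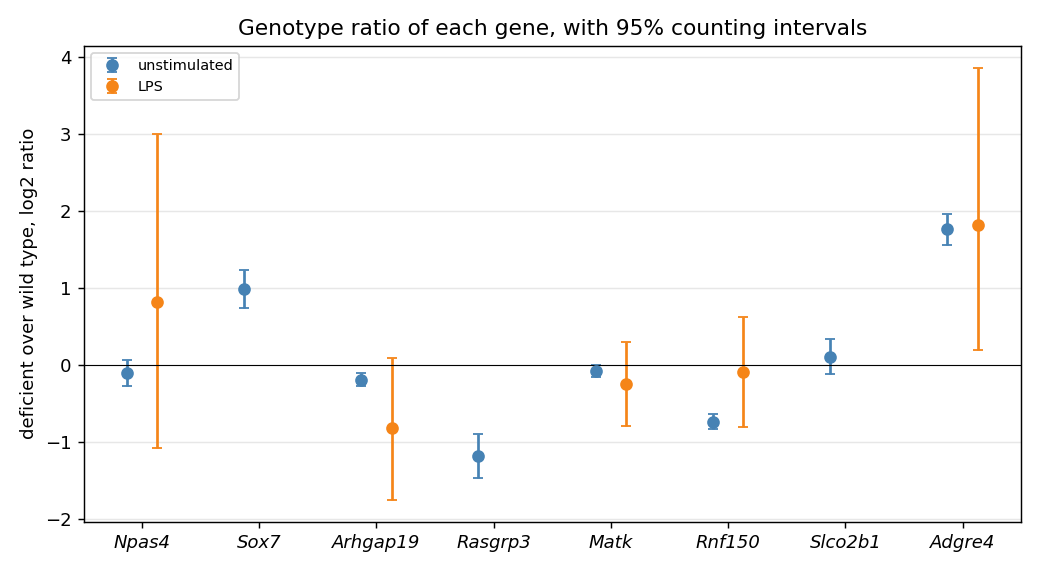
Ratio of the deficient to the wild-type library (log2) for each gene, without LPS and with LPS, with 95% counting intervals. Adgre4 lies near 1.8 in both conditions, Sox7 and Rasgrp3 lie on opposite sides of 0 without LPS, and Sox7, Rasgrp3 and Slco2b1 have no LPS ratio because both libraries had 0 counts.

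The LPS difference itself was compared between genotypes as a description only. In none of the 5 genes with counts did the 95% interval of the difference of log2 ratios leave out 0. Npas4 gave 0.84 (-0.81 to 2.50), Rnf150 0.64 (-0.04 to 1.32), Arhgap19 -0.61 (-1.46 to 0.24), Matk -0.17 (-0.70 to 0.35) and Adgre4 -0.06 (-1.58 to 1.46), deficient minus wild type. These intervals still allow differences of more than 2-fold in 4 of the 5 genes, all but Matk.

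Since the contrast is a loss of miR-7, the mature sequences and their possible sites in the group are shown. Both family members in the RefSeq table share the seed, bases 2 to 8, in capitals.
mmu-miR-7a-5p: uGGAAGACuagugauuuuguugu
mmu-miR-7b-5p: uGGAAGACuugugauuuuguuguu
A site was counted as GTCTTCC, the complement of the seed, or TCTTCCA, the complement of bases 2 to 7 followed by A, in the longest annotated 3′ untranslated region. Of 11289 tested genes with such a region 26.4% held a site. In the group 5 of 8 did: Adgre4, Rasgrp3, Arhgap19, Rnf150 and Slco2b1, while Npas4, Sox7 and Matk did not. Untranslated regions were longer in the group than in general, with a median of 2138 against 1187 bases, and longer regions hold more matches.

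The sites of Adgre4 and Rasgrp3, the genes with the highest and the lowest genotype ratios, are printed with the matching bases in capitals and with bases around them, from GENCODE M21 transcripts on the plus strand of GRCm38. The coordinates are those of the 8 bases of each site.
Adgre4 site 1, chr17:55853343-55853350: tggtttattacttttTCTTCCAtaga
Adgre4 site 2, chr17:55853365-55853372: tagaaaaactatttGTCTTCCAggat
Rasgrp3 site 1, chr17:75527878-75527885: ggccacagggctctcTCTTCCAacct
Rasgrp3 site 2, chr17:75528991-75528998: attttgtatctctgGTCTTCCtatga
The second Adgre4 site joins both matches, and it begins at base 979 of 1276 in its untranslated region. Adgre4 was higher and Rasgrp3 lower in the deficient unstimulated library, both carrying 2 sites, and neither genotype difference passed the test. Sox7, with no site, was also higher.

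Levels of different genes were compared per kilobase of annotated exon, as means of the 2 libraries of a condition. Without LPS the order was Matk (15.1 CPM per kilobase), Arhgap19 (11.4), Adgre4 (3.63), Npas4 (3.16), Rnf150 (2.57), Sox7 (2.16), Slco2b1 (1.21) and Rasgrp3 (0.984). Matk and Arhgap19 did not overlap each other or the rest. The values of Adgre4, 1.65 in wild-type and 5.60 in deficient cells, spanned those of Npas4, and Rnf150 and Sox7 overlapped as well. With LPS the order was Matk (0.363), Arhgap19 (0.130), Adgre4 (0.0785), Rnf150 (0.0576) and Npas4 (0.0404), followed by the 3 genes without counts. Rnf150 has 17242 annotated exonic bases, and if macrophages use a shorter form its level per kilobase is understated.

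Neighbours on the chromosome did not share 1 direction. Of the 16 nearest protein-coding genes before and after the 8 genes, 12 were tested, of which 3 fell, 2 rose and 7 did not pass in edgeR. Over all tested genes 16.3% fell and 18.0% rose, and with 12 genes the counts are a description only. Tpbgl, 30.7 kb from Slco2b1, fell from 10.9 to 0.241 and from 8.82 to 0.427 CPM (log2 -4.87 ± 0.47), the neighbour with the strongest fall. Frat1, a Wnt pathway gene 27.9 kb from Arhgap19, fell too (-2.68 ± 0.47), and so did Pot1b, a telomere protein gene next to Adgre4 (-0.94 ± 0.26). Ltbp1, next to Rasgrp3, and Gm10645, next to Rnf150, rose (3.67 ± 0.71 and 1.97 ± 0.21). Mrpl54, only 1.35 kb after Matk, did not pass (9.36, 16.2, 11.2 and 17.5 CPM).

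The genes whose pattern over the 4 libraries lay closest to the mean pattern of the group were found among 10526 tested genes with at least 5 CPM in some library, by the distance between centred log2(CPM + 0.5) values. The nearest included, in order, Ksr2 (distance 0.261), Pparg (0.381), Hip1 (0.409), Deptor (0.461), Cd300lb (0.461), Dhrs3 (0.466), Slc46a3 (0.470), Plxdc1 (0.476) and Clspn (0.559). Ksr2 stood at 47.9, 1.42, 39.9 and 1.47 CPM, and Pparg at 43.5, 1.33, 39.5 and 0.988 CPM. Within the group, Npas4 lay closest to the mean (0.184) and Arhgap19 farthest (1.33). With 4 libraries such likeness says little more than that all are much lower with LPS.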

How the data were processed

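The authors deposited whole-number read counts for each gene, not normalized, in a separate file for each library. Per the series design text, poly(A) RNA was sequenced on a HiSeq 2000, bases were called with Casava v1.8.2, reads were trimmed with Cutadapt and aligned with TopHat v2.0.13, and exon annotation came from Partek. The submitters' processing notes name HTSeq and the build mm8, while the sources used here do not state the strand setting or annotation release. Of 52550 gene IDs, 52403 (99.7%) matched GENCODE M21 without version, from which symbols, GRCm38 positions and exon lengths were taken, whatever build was aligned to.

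The members, gene lists and motifs were chosen with earlier results of these data known. Genes with at least 1 CPM in at least 2 libraries were tested. Genotype and LPS entered 1 additive model in edgeR 4.0.16 (R 4.3.3, TMM scaling, quasi-likelihood test, Benjamini-Hochberg, adjusted p under 0.05 called), which leaves 1 residual degree of freedom, so the pairs of libraries stand in for replicates and p-values compare libraries. SE is the fitted log2 value divided by the square root of F. Pairs of libraries were compared by the ratio of scaled counts with exact Clopper-Pearson 95% intervals, and differences of log2 ratios by normal intervals after adding 0.5 counts. Intervals and the floor of 3 counts cover counting error only, and are too narrow where reads are not independent molecules, as PCR copies are not. Nonzero counts of the relatives and markers were seldom under 4, and the reason was not tested. The 0 counts of Sox7, Rasgrp3 and Slco2b1 are therefore deposited values that need not mean no read. Their limits hold only if these are true counts. On data simulated for 12730 genes, 95% of 4-fold LPS changes and 97% of 4-fold genotype changes were recovered. The simulation gave every gene the same spread between libraries and additive changes in 200 genes for each factor. It thus checks the fitting and does not give the power of the real tests, where spread differs between genes. Named relatives are, per list, the 2 lowest and 2 highest called and the most abundant uncalled gene. A few others (Csk, Rhoa, Sox17, Sox18, and the marker and neighbour genes named) were added after their values were seen or by position. Most alike genes are the 10 nearest. Some genes that fall under these rules are left out of the text. As alternatives, the following were run: DESeq2 1.42.0 size factors and Wald test, total counts, other filters, models with 1 factor, an 8-fold limit and leaving out each library.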

Additional observations from a re-analysis of the deposited data

How the results depend on the processing

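No paired analysis was possible because each group holds 1 library, so the groups share fewer than 2 replicate numbers. All 8 genes stayed lower in both pairs, by an interval wholly beyond the limit, with DESeq2 size factors, with total counts and with an 8-fold limit. For genotype, 0 of the 8 genes were called with either other scaling, without a filter and by DESeq2. The filter at 10 CPM kept 4 of the 8 genes in the test and called 0, and the model of genotype alone called 0 of all genes, so it says nothing about the 8. Scaling by total counts moved the LPS ratios of all genes by -0.44 (wild type) and -0.38 (deficient) on the log2 scale, which took Matk in the wild-type pair to -5.73, outside its counting interval, and raised the relatives that fell from 38 to 59 and lowered those that rose from 29 to 19. Leaving out 1 library, in a model of LPS alone, gave 18 to 33 relatives that fell and 10 to 19 that rose, with fewer samples in each fit. Of 23 ratios of single genes, 23 stayed within their counting intervals with DESeq2 size factors and 22 with total counts. Depth limits what can be said of the LPS libraries, where the 8 genes had 0 to 60 counts.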
